A study of Homo sapiens with 12 samples.

Results

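The RNA of SH-SY5Y cells carrying a tau construct with both K174Q and S199E (Tau-K174Q-S199E) was compared with that of cells carrying tau with S199E alone (Tau-S199E). Both constructs carry S199E, so the groups differ by the K174Q substitution of the transfected tau. The comparison used 6 of the 12 libraries of the series, chosen by construct, 3 for Tau-S199E (libraries 10, 11 and 12) and 3 for Tau-K174Q-S199E (libraries 16, 17 and 18). The other 6 libraries, 3 of wild-type tau (Tau-WT, libraries 1, 2 and 3) and 3 of Tau-K174Q (libraries 4, 5 and 6), entered as levels and in the estimate of the spread. SH-SY5Y is an established human neuroblastoma line that the labels trace to a metastatic bone tumour, and it keeps its own MAPT gene, which encodes tau. Every group was transfected, RNA was taken after 24 h, and 3′ mRNA libraries were made from 400 ng of RNA each. No label states that the libraries of a construct were grown as separate cultures, and the p-values then cover the spread among libraries only, part of which may be technical. All 1676 genes of the deposited table were used. Its values are standardised by gene over the 12 libraries, so that a difference is given in SDs of that gene (SD units), depth is unknown, and levels cannot be compared between genes.

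Tau binds microtubules in axons and is also found in the nucleus of neurons. Its binding and location are regulated by phosphorylation and acetylation, and both substituted residues lie in its proline-rich region, ahead of the microtubule-binding repeats. Glutamine in place of lysine is used to mimic an acetylated lysine, and glutamate in place of serine to mimic a phosphorylated serine. The title of the series names SIRT6, a deacetylase, and CBP, an acetyltransferase, together with nuclear tau and protein synthesis, so genes of the translation apparatus are described before other groups. The stretch of the MAPT coding sequence that holds both altered codons is shown because the comparison turns on the former codon with the latter kept as glutamate. It is the native sequence of GENCODE release 29 (GRCh38), codons 170 to 203 of the tau form with 441 residues, 102 bases, and the capitals mark the codon changed by K174Q (AAA, lysine) and the codon changed by S199E (AGC, serine). The residues lie 25 positions apart.
MAPT codons 170 to 203: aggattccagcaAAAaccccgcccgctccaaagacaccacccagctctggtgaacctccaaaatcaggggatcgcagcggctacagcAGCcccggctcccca

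Libraries 12 and 18 stood apart from the others of their construct. Library 12 lay beyond libraries 10 and 11, on the side away from Tau-WT, in 1433 genes (85.5%), and held the most extreme value of all 12 libraries in 848 genes (50.6%). Its values correlated with those of libraries 10 and 11 across genes (Pearson 0.84 and 0.73). Library 18 ran against its own construct: across genes its correlation was -0.67 with library 16 and -0.61 with library 17, but 0.60, 0.43 and 0.62 with the Tau-S199E libraries 10, 11 and 12 and 0.70, 0.57 and 0.36 with the Tau-K174Q libraries 4, 5 and 6. It lay nearer to the Tau-S199E mean than to the mean of libraries 16 and 17 in 1240 genes (74.0%), and nearer to the Tau-K174Q mean in 1517 genes (90.5%). Libraries 16 and 17 correlated at 0.56 with each other. With Tau-WT libraries 1, 2 and 3, library 16 correlated at 0.69, 0.77 and 0.75 and library 17 at 0.58, 0.66 and 0.59. Which of libraries 16, 17 and 18 are typical of their construct was not tested. These correlations describe genes of 1 table, which are not independent, and the mean and SD of each gene were set over the same 12 libraries. Results are therefore given with all libraries and without libraries 12 and 18. A swap of a library or of its label was not tested.

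The table is itself a selection. The authors' deposited table lists an adjusted p of at most 0.0499 for each gene, for a contrast that its header does not name. The sign of Tau-K174Q-S199E minus Tau-S199E equalled that of the deposited log2 fold change in 1672 of 1676 genes, so the direction of a gene below is not independent of how the table was made. Genes outside the table were not analysed here.

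Between the constructs, 788 genes stood higher and 888 lower with Tau-K174Q-S199E, with a median absolute difference of 1.36 SD units (middle 50% of genes from 1.11 to 1.59) and a median SE of 0.56. With a mean for each of the 4 constructs and each gene's ordinary residual variance, fitted with limma with Benjamini-Hochberg adjustment, 2 genes passed an adjusted p of 0.05, both lower (0.119% of the table), and 0 higher. The unadjusted p was under 0.05 in 946 genes (56.4%), 455 higher and 491 lower, or 559 higher and 388 lower after centring each library on its median, the next smallest adjusted p after these 2 genes was 0.0644, shared by 208 genes, and 1075 genes were under 0.1. The 3 libraries of one construct all lay above or all below the 3 of the other in 728 genes (43.4%), 358 higher (21.4%) and 370 lower (22.1%) with Tau-K174Q-S199E. Without library 18, 1315 genes passed (78.5%), 629 higher (37.5%) and 686 lower (40.9%), and the median absolute difference was 1.79. That fit kept libraries 16 and 17 for Tau-K174Q-S199E, and library 18 was left out because of these same values. Without library 12, 2 genes passed, INO80B-WBP1 and a gene with no symbol, and the median was 1.04. Leaving out both gave 730 genes (43.6%), 313 higher (18.7%) and 417 lower (24.9%), with a median of 1.46, and the sign of the difference changed in 3 genes. Moderated variances over all libraries called 1153 genes (68.8%), 34.4% of the table in each direction. Weights for each library called 1434 (85.6%), 40% higher and 45.6% lower. The weights were 4.21, 0.85 and 0.19 for libraries 10, 11 and 12 and 0.28, 4.69 and 0.15 for libraries 16, 17 and 18. That weighted fit thus rested mostly on library 10 for Tau-S199E and on library 17 for Tau-K174Q-S199E. Centring each library on its median moved the difference of every gene by 0.35 and turned the sign of 16.

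**Figure D1:**
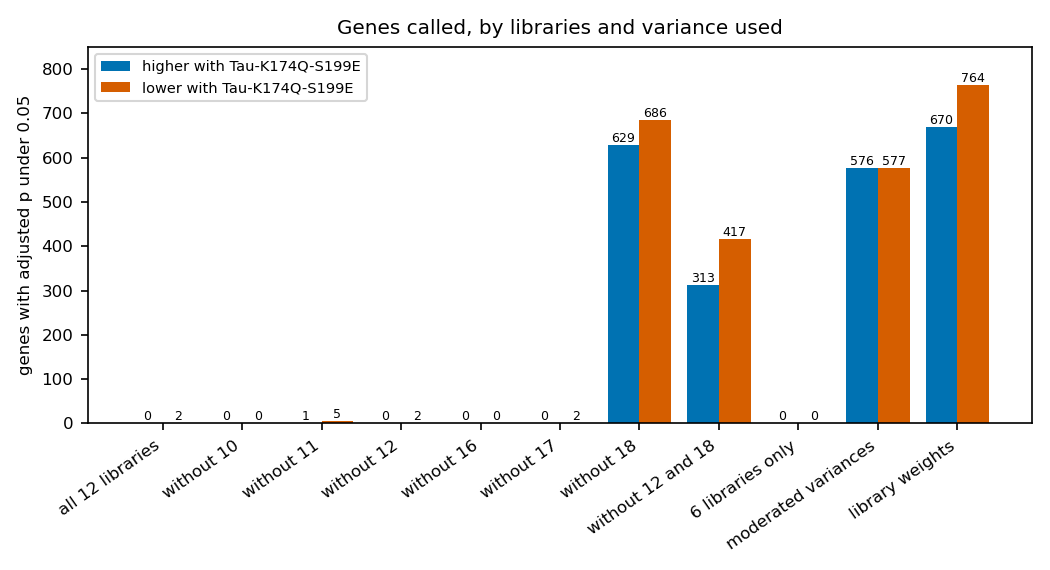
Number of genes with an adjusted p under 0.05 (y axis) in each version of the fit (x axis), blue bars for genes higher and orange bars for genes lower with Tau-K174Q-S199E than with Tau-S199E. With all libraries 0 and 2 genes passed, and without library 18, 629 and 686.

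**Figure D2:**
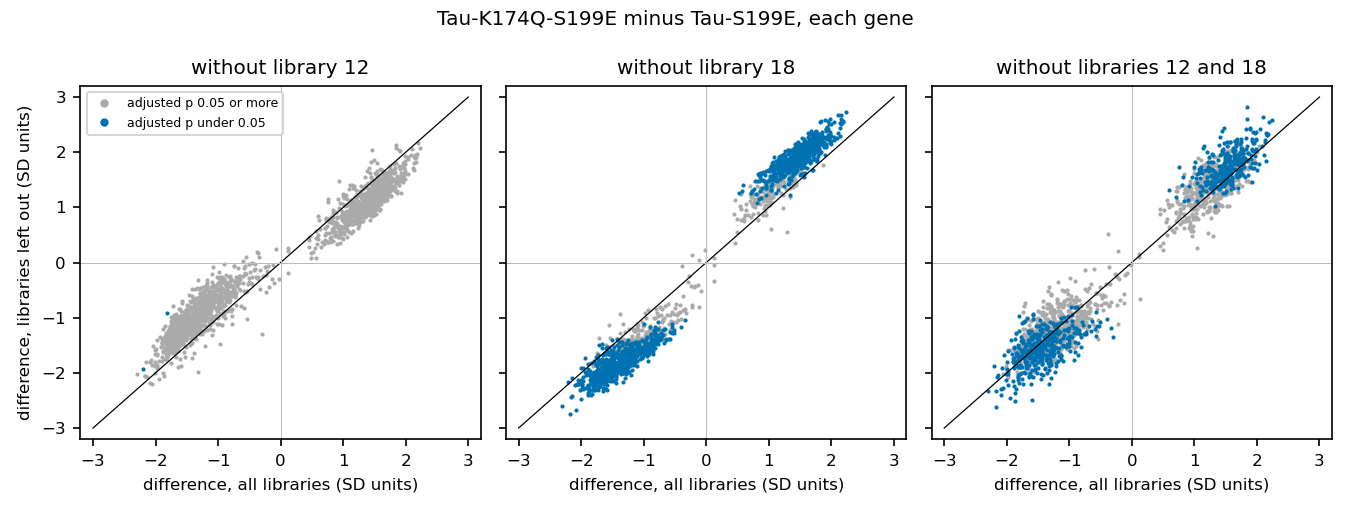
Difference between Tau-K174Q-S199E and Tau-S199E of each gene in SD units with all libraries (x axis) against the difference with the libraries named above each panel left out (y axis). Blue genes have an adjusted p under 0.05 in the version with libraries left out, the line marks equal values, and the difference was farther from 0 in 1622 of 1676 genes without library 18 and nearer to 0 in 1552 without library 12.

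Both genes that passed over all libraries fell with Tau-K174Q-S199E. COL8A1 encodes a short-chain collagen of basement membranes (chromosome 3, 99638475 to 99799226, plus strand, GRCh38). Its standardised value was 1.43, 1.19 and 1.90 in Tau-S199E libraries 10, 11 and 12 and -0.81, -0.42 and -0.25 in Tau-K174Q-S199E libraries 16, 17 and 18. The groups did not overlap, and library 18 stood with libraries 16 and 17, so that the gene fell by 2.002 SD units (SE 0.26, adjusted p = 0.0448). Its level was -0.93 ± 0.29 with Tau-WT and -0.08 ± 0.32 with Tau-K174Q (mean ± SD, n = 3 each). INO80B-WBP1 is a read-through gene that joins INO80B, a subunit of a chromatin remodelling complex, with its neighbour WBP1 (chromosome 2, 74455088 to 74460884, plus strand). It stood at 1.64, 1.02 and 2.16 with Tau-S199E and at -0.61, -0.50 and -0.69 with Tau-K174Q-S199E, a fall of 2.20 (SE 0.24, adjusted p = 0.025). Levels were close in the other constructs, -0.46 ± 0.06 with Tau-WT and -0.54 ± 0.02 with Tau-K174Q. The Tau-S199E libraries alone thus stood high. They also varied most, with an SD of 0.57 against 0.09 for the double construct. The residual SD that set the SE of INO80B-WBP1, pooled over the 4 constructs, was 0.29. Its deposited log2 fold change, for the unnamed contrast, was -7.645. Whether its reads were nearly absent outside Tau-S199E was not tested, because standardised values hold no counts. INO80B itself, listed separately, differed the other way (1.83, SE 0.54, adjusted p = 0.0649). Reads of these overlapping genes can be shared by the counting, so values of both are uncertain. Neither gene passed in every fit that left out 1 of the 6 libraries: COL8A1 did not pass without library 10, 12, 16 or 17 and INO80B-WBP1 not without library 10, 16 or 17, with a highest adjusted p of 0.189 for either. With library 10 or library 16 left out no gene passed, and 794 and 437 genes had an unadjusted p under 0.05. Without library 17 the 2 genes that passed were PLCG2 and MT-CO3, both lower, and without library 11 there were 6, COL8A1 and INO80B-WBP1 with PSMB6, GNPAT and SGSH lower and GTPBP3 higher, the last 3 named after their values were seen. Centring each library on its median left COL8A1 at an adjusted p of 0.0685. Their differences without libraries 12 and 18 were -1.93 and -1.88 (adjusted p = 0.0172 and 0.0112).

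The 10 genes with the smallest p above Tau-S199E had an adjusted p of 0.0644 each over all libraries and under 0.05 without library 18 and without libraries 12 and 18. DDIT3 encodes CHOP, a transcription factor of the stress response, and stood at -0.88, -0.76 and -1.48 with Tau-S199E against 1.999, 0.80 and 0.48 with Tau-K174Q-S199E. ZNF714, a zinc finger gene, stood at -1.11, -1.33 and -1.30 against 1.38, 1.28 and 0.17, and ROCK1, a kinase that drives actomyosin contraction, at -0.12, -1.44 and -1.53 against 1.68, 1.37 and 0.35. In each of these genes the groups were apart, although library 18 was the lowest of its group. MARK2, a kinase that phosphorylates tau and other microtubule-associated proteins, stood at -1.34, -0.82 and -2.17 against 0.85, 0.46 and 0.02, a difference of 1.89 (SE 0.40). The others were AKR7A2, an aldehyde reductase (1.92), LITAF, a lysosomal membrane protein (1.84), ZBTB8A (2.09), DYNC2I2, a dynein chain of cilia (1.98), SULT1A3, a sulfotransferase of monoamines (1.78) and MRPL12, a mitochondrial ribosomal protein (1.81). SULT1A3 has a near-identical copy elsewhere in the genome, so its value is uncertain where the counting could split reads.

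Below Tau-S199E, the other 8 genes with the smallest p also had an adjusted p of 0.0644. SEC24C, a cargo adaptor of the vesicle coat that leaves the endoplasmic reticulum, had the largest difference of the table: 1.09, 1.04 and 1.91 with Tau-S199E against -1.28, -1.24 and -0.36 with Tau-K174Q-S199E (-2.30, SE 0.42). RAB2A, a GTPase between that compartment and the Golgi, stood at 0.93, 1.86 and 1.76 against -1.26, -0.59 and -0.10 (-2.17, SE 0.36). Both genes act early in secretion, and in both the groups were apart by more than 1 SD unit. PSMB6, a catalytic subunit of the proteasome, stood at 1.36, 0.95 and 2.28 against -0.71, -0.08 and -0.29, and PLCG2, a phospholipase, at 1.36, 1.66 and 1.37 against -0.74, 0.56 and -0.44. MRPS34 (-1.42) and AURKAIP1 (-1.51) are proteins of the mitochondrial ribosome, PPT2 (-1.79) is a lysosomal thioesterase, and RPL10AP6 (-1.97) is a ribosomal protein pseudogene whose reads cannot be told from those of its parent with certainty. In AURKAIP1, MRPS34, PLCG2, PSMB6 and INO80B-WBP1 library 18 was not the Tau-K174Q-S199E library nearest to Tau-S199E.

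**Figure D3:**
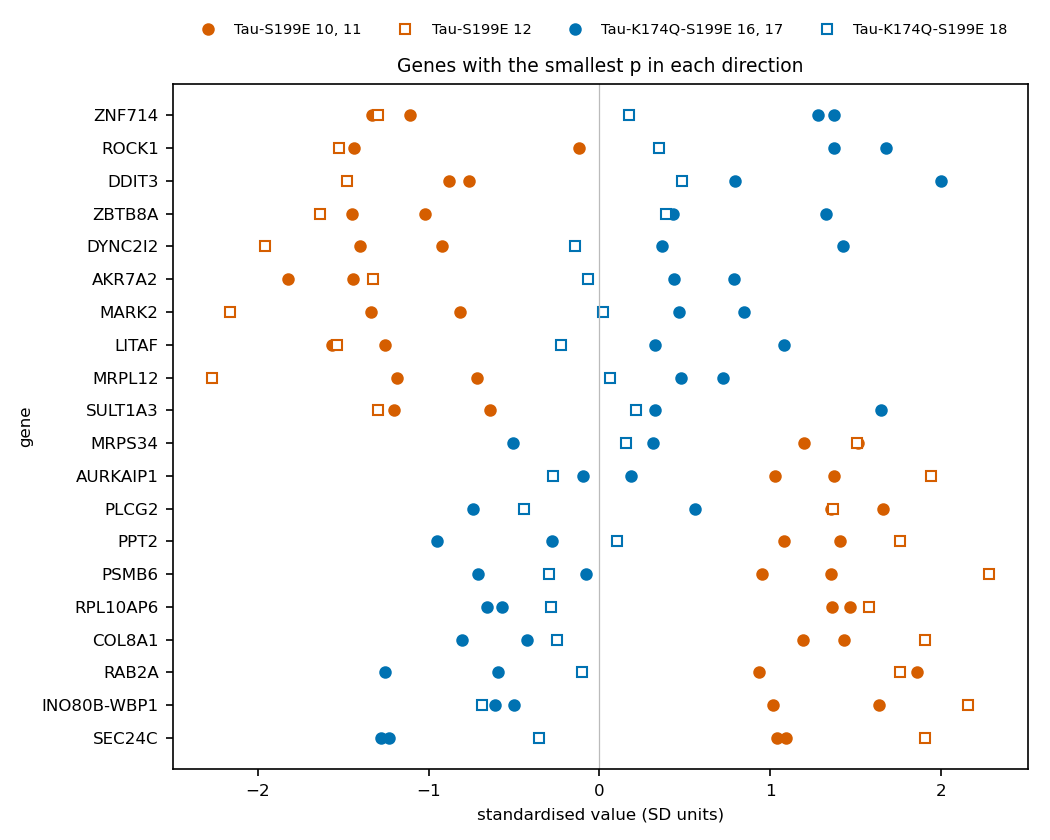
Standardised value (x axis, SD units) of the 10 genes with the smallest p in each direction (y axis), orange for Tau-S199E and blue for Tau-K174Q-S199E. Open squares are libraries 12 and 18, filled circles the other libraries, and in all 20 genes the 2 colours do not overlap. The genes were chosen by p in this same comparison, so their separation is not an independent result.

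No member of the gene lists below passed over all libraries, where 0.119% of the table did. Members are therefore described by their values and by how many had groups that did not overlap, against 43.4% of the table. Also given is how many passed without library 18, against 78.5% of the table, and without libraries 12 and 18, against 43.6%. Library 18 was set aside because of these same values, and without it the difference was farther from 0 in 1622 of 1676 genes. Counts without it rest on libraries 16 and 17 of Tau-K174Q-S199E and are no independent support. The lists were drawn up for this line and the study's question, and the table's median difference, -0.65 (-0.30 without library 12, -1.06 without library 18 and -0.70 without both), is the reference for their medians. Few genes lay near 0, so a list's median takes the sign of its larger side. Centring each library on its median raised every list median, and that of the table, by 0.35. Medians also depended on single libraries: of 29 lists with at least 3 members, leaving out library 12 moved the median by over 1.5 times in 14, library 16 in 12, library 17 in 11, library 18 in 7 and library 10 or 11 in 1 each. After each median the value nearest to 0 and the value farthest from 0 with 1 library left out are therefore given.

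Cytosolic ribosomal protein genes, which build the subunits that make protein outside mitochondria, had 32 of 84 members in the table, 19 lower and 13 higher with Tau-K174Q-S199E, with a median of -1.11, or -0.57 without library 12 and -1.30 without library 10. Groups did not overlap in 17, 12 lower and 5 higher, and 23 passed without library 18 and 11 without libraries 12 and 18. RPL39, of the large subunit, stood at 1.43, 0.71 and 1.49 with Tau-S199E against -1.73, -0.13 and 0.34 (-1.72, SE 0.55), and RPS29, of the small subunit, at 0.88, 0.79 and 1.73 against -0.53, -1.01 and 0.47 (-1.49). RPL3, which lies at the catalytic centre of the large subunit, went the other way, at -1.05, -0.85 and -2.17 against 1.39, 0.17 and -0.23 (1.80, SE 0.48). The list thus held both directions, with RPS16 (-1.61) and RPL13 (-1.58) below Tau-S199E. These genes have many processed pseudogenes, so that reads may be split.

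Of the genes of the mitochondrial ribosome, which translates the few proteins encoded in mitochondrial DNA, 25 of 83 were in the table, 17 lower and 8 higher (median -1.28, or -0.68 without library 12 and -1.55 without library 11). Groups were apart in 11, and 19 passed without library 18 and 11 without libraries 12 and 18. MRPL58, a release factor built into this ribosome, stood at 0.53, 1.27 and 2.46 with Tau-S199E against -0.60, -0.95 and -0.29 (-2.04, SE 0.45), and MRPL12, which also binds mitochondrial RNA polymerase, at -1.19, -0.72 and -2.27 against 0.72, 0.48 and 0.06 (1.81, SE 0.39). MRPL36 was among the lower members (-1.48, SE 0.48).

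Ribosome assembly and RNA polymerase I were represented by 33 of 140 genes, 18 higher and 15 lower, with a median of 0.89, or 0.40 without library 16 and 1.14 without library 18. Groups did not overlap in 12, 7 higher and 5 lower. POLR2E, a subunit shared by the nuclear RNA polymerases, stood at -1.45, -0.64 and -1.91 with Tau-S199E against 1.10, 0.54 and -0.25 (1.79, SE 0.51), whereas POLR2H, another shared subunit, stood at 0.73, 1.14 and 1.65 against -1.03, -1.26 and 0.33 (-1.83, SE 0.54). Subunits of the same enzymes therefore differed in opposite directions. GNL3L, a nucleolar GTPase (1.58), was higher, and LAS1L, which takes part in processing the large subunit's RNA (-1.51), and ZNHIT3, which takes part in assembling small nucleolar ribonucleoproteins (-1.61), were lower. Without library 18, 27 of the 33 passed, and 16 passed without libraries 12 and 18.

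Translation factors had 26 of 76 members in the table, 15 higher and 11 lower (median 0.85, or 0.40 without library 16 and 1.35 without library 18, and 1.22 without libraries 12 and 18). EIF2S2, the beta subunit of the initiation factor that brings the initiator tRNA, stood at -0.98, -0.87 and -1.33 with Tau-S199E against 2.01, 1.02 and -0.54 (1.89, SE 0.58). EIF3D, which can bind the cap of some mRNAs (1.46), and EIF4E2, a cap-binding protein linked to repression (1.46), were also higher. EEF1B2, the exchange factor of the elongation factor that delivers tRNAs, stood at 0.86, 1.06 and 2.32 against -0.25, 0.13 and -0.63 (-1.66, SE 0.42), and EIF1, which guards the choice of start codon, at 0.85, 0.84 and 1.93 against -0.47, -0.43 and 0.14 (-1.46). Groups were apart in 12 members, 6 in each direction, and 20 passed without library 18 and 10 without libraries 12 and 18.

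Among tRNA synthetases and their scaffold, 12 of 41 genes were in the table, 6 in each direction. AIMP2, a scaffold of the multisynthetase complex, stood at 0.71, 1.23 and 2.26 with Tau-S199E against -1.24, -0.42 and -0.12 (-1.99, SE 0.47). HARS1, the histidyl synthetase, differed by -1.74 (SE 0.58), and the scaffold gene EEF1E1 by -1.505 (SE 0.57). VARS1, the valyl synthetase (1.504), and the mitochondrial seryl synthetase SARS2 (1.70) were higher with Tau-K174Q-S199E. Groups did not overlap in 6 of the 12, and 7 passed without library 18 and 2 without libraries 12 and 18. The median of the list was 0.01 and turned negative without library 11.

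**Figure D4:**
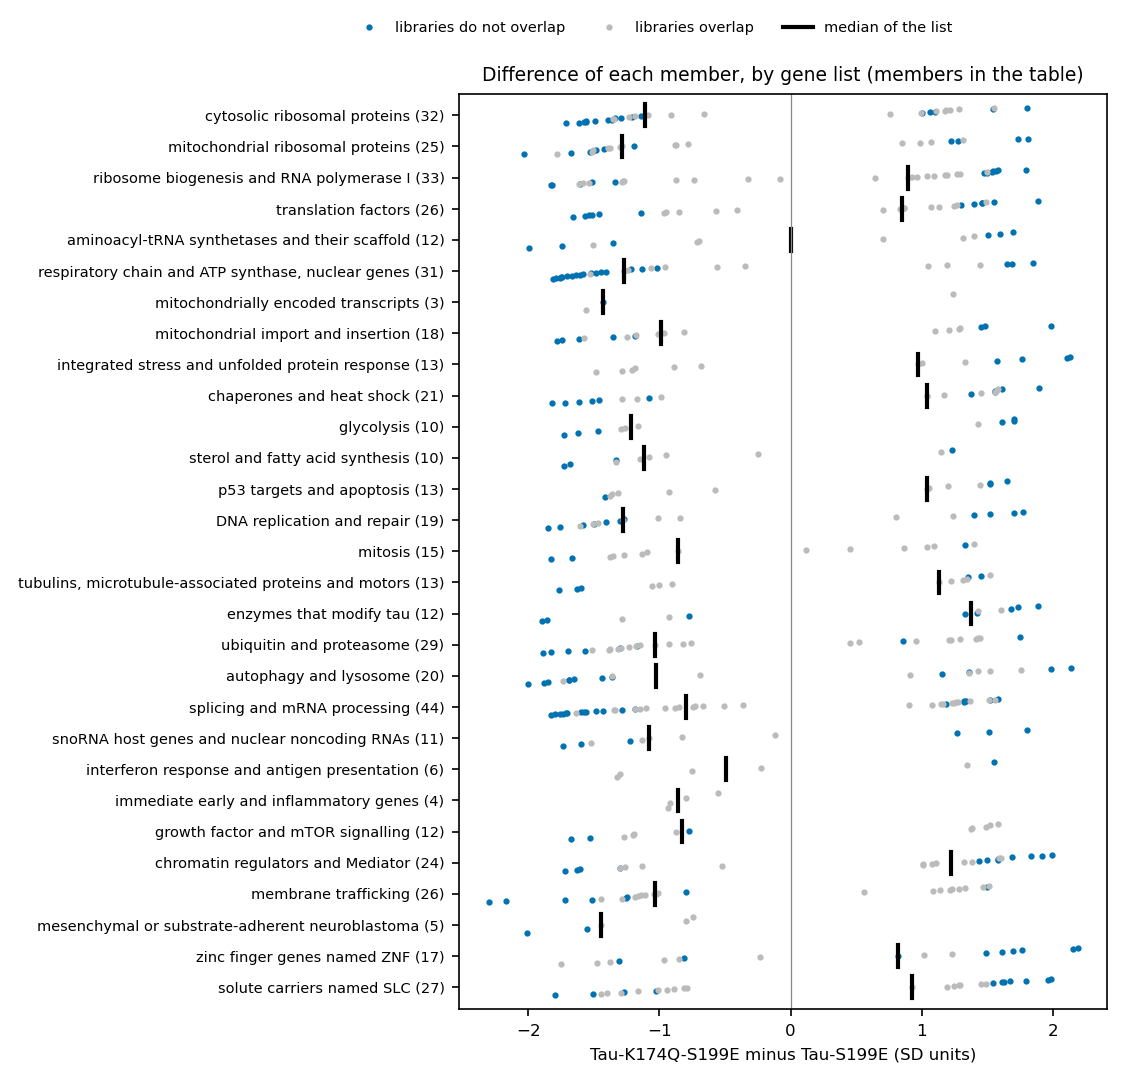
Difference between Tau-K174Q-S199E and Tau-S199E in SD units (x axis) of each member of each gene list (y axis, number in the table in parentheses), with the 29 lists that have at least 3 members. Blue points are genes whose 3 against 3 libraries do not overlap, grey points the others, and black bars the medians, which run from -1.44 to 1.38.

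Nuclear genes of the respiratory chain and ATP synthase were mostly lower with Tau-K174Q-S199E: of 31 in the table (82 listed), 25 were lower and 6 higher, with a median of -1.27, or -0.95 without library 12 and -1.61 without library 18. Groups did not overlap in 20 (64.5%), 17 lower and 3 higher. In 16 of the 31 genes library 18 lay nearer to libraries 16 and 17 than to the Tau-S199E mean, against 26.0% of the table. Whether these shares differ from those of the table was not tested. UQCRFS1, the Rieske iron-sulphur protein of complex III, stood at 0.98, 0.94 and 2.13 with Tau-S199E against -0.88, -0.42 and 0.23 (-1.70, SE 0.37). COX5B, of cytochrome c oxidase, stood at 1.14, 1.07 and 2.06 against -1.10, 0.54 and -0.45 (-1.76, SE 0.47), and NDUFA3, of complex I, at 1.08, 1.46 and 1.996 against -0.40, -0.19 and -0.24 (-1.79). These genes of complexes I, III and IV shared the lower level. COX7C, also of cytochrome c oxidase, differed by -1.58 (SE 0.42), and ATP5MC3, which encodes a ring subunit of ATP synthase, by -1.75 (SE 0.43). Without library 18, 24 of the 31 passed, and 15 passed without libraries 12 and 18. The list mean was 0.50, 0.44 and 1.27 in libraries 10, 11 and 12 and -0.13, -0.26 and 0.11 in libraries 16, 17 and 18.

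Of the transcripts encoded in mitochondrial DNA, 3 of 15 were in the table. MT-CO2 and MT-CO3, which encode subunits of cytochrome c oxidase, stood at 1.16, 1.203 and 1.33 and 1.04, 1.48 and 1.56 with Tau-S199E against -0.06, -0.23 and -0.30 and -0.62, 1.08 and -1.05. MT-ND5, of complex I, stood at -0.96, -0.66 and -1.53 against 1.04, 0.64 and -1.13. The groups were apart in MT-CO2 only. Protein import and insertion into mitochondria had 18 of 53 genes in the table, 11 lower and 7 higher, with groups apart in 8. The median was -0.99, or -0.44 without library 12 and -1.43 without library 18. Of these genes 16 passed without library 18 and 9 without libraries 12 and 18. PAM16, of the motor that pulls proteins into the matrix, stood at 1.34, 0.47 and 2.06 against -0.17, -1.15 and -0.05 (-1.75, SE 0.50). OXA1L, which inserts proteins into the inner membrane (-1.35), TOMM20, a receptor of the outer membrane (-1.19) and SMDT1, of the calcium uniporter (-1.62), were lower. SLC25A1, the citrate carrier, stood at -0.89, -1.07 and -1.97 against 1.48, 0.65 and -0.10 (1.99, SE 0.47).

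The integrated stress and unfolded protein responses, which slow translation and induce chaperones and amino acid synthesis, had 13 of 49 genes in the table, 7 higher and 6 lower (median 0.97, or 0.36 without library 16 and 1.16 without library 11). The groups were apart in 4, each higher. Beside DDIT3, SESN2, an inhibitor of mTORC1 induced by stress, stood at -0.75, -0.63 and -1.92 with Tau-S199E against 1.996, 0.50 and 0.54 (2.11, SE 0.53), and PHGDH, the entry enzyme of serine synthesis, at -1.21, -0.89 and -1.42 against 2.19, -0.09 and -0.33 (1.76, SE 0.63). PSAT1, the next enzyme of that pathway, differed by -1.48 (SE 0.53), opposite to PHGDH. XBP1, a transcription factor of the unfolded protein response, stood at 0.53, 0.73 and 2.01 against -0.52, -0.90 and 0.83, and there the groups overlapped. Without library 18, 11 of the 13 passed, and 7 passed without libraries 12 and 18.

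Chaperones and heat shock genes had 21 of 62 members in the table, 12 higher and 9 lower, with groups apart in 11 and a median of 1.04, or 0.58 without library 16 and 1.39 without library 18. HSPH1, a nucleotide exchange factor of HSP70, stood at -1.02, -1.78 and -0.98 with Tau-S199E against 1.43, 0.60 and -0.13 (1.90, SE 0.43), and HSPD1, the mitochondrial chaperonin, at -0.79, -1.18 and -1.96 against 0.38, 0.61 and -0.22 (1.56). GET3, which delivers tail-anchored membrane proteins, was likewise higher (1.56). CCT5, of the cytosolic chaperonin that folds tubulin and actin, stood at 1.13, 0.64 and 2.18 against -1.39, -0.20 and 0.09 (-1.82, SE 0.53), and DNAJA1, a co-chaperone of HSP70, differed by -1.62. Without library 18, 19 of the 21 passed, and 11 passed without libraries 12 and 18.

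Ubiquitin and proteasome genes numbered 29 of 101, 18 lower and 11 higher (median -1.03, or -0.59 without library 17 and -1.56 without library 18). Groups were apart in 8 (27.6%), and 22 passed without library 18 and 12 without libraries 12 and 18. UBA1, the main enzyme that activates ubiquitin, stood at 0.91, 0.35 and 2.51 with Tau-S199E against -0.24, -0.90 and -0.20 (-1.70, SE 0.54), and PSMD11, of the proteasome lid, differed by -1.57.

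Autophagy and lysosome genes, which clear aggregates and organelles, had 20 of 96 members in the table, 9 higher and 11 lower, with groups apart in 12. The median was -1.02, or -0.39 without library 12 and -1.47 without library 18. Of these genes 17 passed without library 18 and 10 without libraries 12 and 18. TFE3, a transcription factor of lysosomal genes, stood at -0.996, -0.75 and -2.27 with Tau-S199E against 1.29, 0.63 and 0.49 (2.14, SE 0.51), and ATG10, an enzyme of the conjugation system, differed by 1.36 in the same direction. ATG101, of the kinase complex that starts autophagy, went the other way, at 1.15, 1.44 and 1.27 against -0.65, -0.61 and -0.90 (-2.004, SE 0.53). So did PIK3R4, a regulatory subunit of the lipid kinase VPS34 (-1.88), and GLA, a lysosomal galactosidase (-1.85).

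MAPT itself stood at -0.15, -0.38 and -1.44 with Tau-S199E and -0.59, 2.54 and 0.64 with Tau-K174Q-S199E, and library 17 was the highest of all (difference 1.52, SE 0.73, adjusted p = 0.106, and exact permutation p = 0.3, two-sided, where 0.1 is the smallest that 3 against 3 can give). The groups overlapped. Reads of a construct that lacks the native 3′ end would be missed here, so MAPT gives no check on the constructs. Of the enzymes that add or remove groups on tau, 12 of 72 were in the table, 7 higher and 5 lower, with groups apart in 8 and a median of 1.38, or 0.91 without library 16 and 1.63 without library 18. Among kinases, CSNK1A1 stood at -0.55, -0.81 and -1.62 against 1.81, 0.49 and -0.23 (1.68, SE 0.56) and GSK3A, a kinase of many tau sites, at -0.58, -0.95 and -2.16 against 1.06, -0.50 and 0.03 (1.43, SE 0.55). MARK2, CSNK1A1 and GSK3A, which add phosphate, were thus all higher with Tau-K174Q-S199E, as was PRKACA, the catalytic subunit of protein kinase A (1.43), while AKT1 (-0.78) and ABL1 (-0.93) were lower. Among phosphatases, PPP2R1A, the scaffold of PP2A, the main tau phosphatase, stood at 0.76, 1.49 and 1.46 against -1.19, -0.87 and 0.07 (-1.90, SE 0.42), and PPP1CC, a catalytic subunit of PP1, at 1.11, 0.53 and 2.27 against -0.96, -0.70 and -0.03 (-1.86). PPP1CA, another catalytic subunit of PP1, stood opposite, at -0.86, -0.82 and -2.10 against 1.40, 0.46 and -0.43 (1.74), and PPME1, which removes methyl groups from PP2A, differed by 1.33. CREBBP, the gene of the acetyltransferase CBP, stood at -0.99, -0.41 and -2.14 against 1.49, 0.22 and -0.43 (1.60, SE 0.55, adjusted p = 0.0688, and 0.0212 without library 18). OGT, which attaches sugar to serines and threonines, differed by -1.28. Without library 18, 11 of the 12 passed, and 10 did without libraries 12 and 18.

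Tubulins, microtubule-associated proteins and motors had 13 of 91 genes in the table, 7 higher and 6 lower (median 1.13, or 0.51 without library 16 and 1.49 without library 18). Groups were apart in 5, and 10 passed without library 18 and 5 without libraries 12 and 18. TUBA1A, the main alpha tubulin of young neurons, stood at 0.63, 0.86 and 2.49 with Tau-S199E against -0.77, -0.58 and 0.03 (-1.76, SE 0.48), TUBA1B differed by -1.63, and DPYSL3, which regulates growth cones, stood at 1.26, 1.11 and 1.59 against -1.09, 0.42 and -0.18 (-1.60). The alpha tubulin genes are close copies, so reads may be split. DCTN1, the large subunit of dynactin, stood at -1.06, -0.56 and -2.17 against 0.50, 0.40 and -0.32 (1.45, SE 0.47), and DYNC1LI2, a light chain of dynein, differed by 1.32.

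Growth factor and mTOR signalling had 12 of 56 genes in the table, 5 higher and 7 lower (median -0.83, or -0.52 without library 17 and -1.25 without library 18). Groups were apart in 3, each lower, and 10 passed without library 18 and 6 without libraries 12 and 18. PTPRF, a receptor tyrosine phosphatase, stood at 1.02, 1.01 and 1.83 with Tau-S199E against -0.75, -0.27 and 0.30 (-1.53, SE 0.34). RPS6KB2, an S6 kinase (1.49), RPS6KA1 (1.58) and PRKAG1, of the AMP-activated kinase (1.37), were higher, with groups that overlapped.

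Splicing and mRNA processing was the longest list in the table, with 44 of 145 genes, 27 lower and 17 higher (median -0.80, or -0.44 without library 17 and -1.40 without library 18, and -1.12 without libraries 12 and 18), with groups apart in 19, 13 lower and 6 higher. SNRNP70, a protein of the U1 particle, stood at 0.63, 1.23 and 2.09 with Tau-S199E against -0.10, -0.55 and 0.31 (-1.43, SE 0.37), and PHF5A, of the U2 particle, at 0.87, 1.40 and 1.43 against -1.35, -0.80 and 0.65 (-1.73). SART1, of the tri-snRNP (-1.80), and CSTF1, a cleavage stimulation factor (-1.82), were also lower. Without library 18, 37 of the 44 passed, and 19 passed without libraries 12 and 18.

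Chromatin regulators and Mediator subunits stood mostly higher with Tau-K174Q-S199E, 16 of 24 in the table (127 listed), with a median of 1.22, or 0.81 without library 16 and 1.74 without library 18, and groups apart in 12, 8 higher and 4 lower. RBBP4, a histone-binding subunit of several complexes, stood at -0.80, -0.93 and -2.28 with Tau-S199E against 1.11, 0.52 and 0.33 (1.995, SE 0.50), and KMT2E, a protein of the trithorax family, at -1.16, -0.24 and -1.82 against 1.62, 1.06 and -0.15 (1.92). CHD3, of the NuRD complex (1.58), and the linker histone gene H1-10 (1.69) were also higher. Without library 18, 20 of the 24 passed, and 13 passed without libraries 12 and 18. Of the genes named ZNF, 9 of 17 were higher (median 0.82, or 0.28 without library 16 and 1.10 without library 18). Groups were apart in 9, 7 higher and 2 lower, and 13 passed without library 18 and 8 without libraries 12 and 18. ZNF652 stood at -1.04, -1.08 and -1.67 against 1.68, 0.82 and 0.17 (2.15, SE 0.54), and ZNF787 (1.76), ZNF106 (1.70) and ZNF346 (1.61) were also higher.

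The hosts of small nucleolar RNAs and other nuclear noncoding RNAs had 11 of 33 genes in the table, 8 lower and 3 higher (median -1.08, or -0.76 without library 17 and -1.54 without library 18). Groups were apart in 6, and 10 passed without library 18 and 2 without libraries 12 and 18. SNHG6 stood at 0.88, 0.63 and 2.30 with Tau-S199E against -0.88, -0.38 and 0.28 (-1.59, SE 0.46), and DANCR at 1.06, 0.80 and 2.15 against -1.497, 0.29 and 0.00 (-1.74). ZFAS1 differed by -1.22, while SNHG25, at -0.60, -1.23 and -1.83 against 1.62, 0.21 and -0.09 (1.80), and EPB41L4A-AS1 (1.51) differed upward.

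DNA replication and repair had 19 of 102 genes in the table, 13 lower and 6 higher (median -1.28, or -0.87 without library 16 and -1.60 without library 18). Groups were apart in 11, and 17 passed without library 18 and 9 without libraries 12 and 18. RRM2, which makes deoxynucleotides for replication, stood at 1.30, 1.43 and 1.15 with Tau-S199E against -1.01, -0.50 and 0.11 (-1.76, SE 0.35), and DDB1, a damage-binding adaptor of a ubiquitin ligase, at 0.51, 0.86 and 2.77 against -0.45, -0.73 and -0.25 (-1.85). RPA2 and RPA3 encode subunits of the protein that coats single-stranded DNA, and they differed in opposite directions, by 1.71 and -1.497. PARP2, a sensor of DNA breaks, differed by 1.40 (SE 0.45). Mitosis genes had 15 of 88 members in the table, 7 higher and 8 lower (median -0.86, or -0.35 without library 12 and -1.54 without library 18). Groups were apart in 3, and 9 passed without library 18 and 3 without libraries 12 and 18. AURKB, a kinase of chromosome segregation, stood at -1.04, -0.71 and -2.12 against 0.49, -0.19 and -0.20 (1.33), and UBE2S, an enzyme of the anaphase-promoting complex, at 0.65, 1.36 and 1.53 against -1.41, -0.34 and -0.19 (-1.83). CENPF, a kinetochore protein, differed by -1.67. Of p53 targets and apoptosis genes 13 of 53 were in the table, 7 higher and 6 lower (median 1.04, or 0.42 without library 16 and 1.39 without library 18). Groups were apart in 4, and 10 passed without library 18 and 6 without libraries 12 and 18. The death receptor gene TNFRSF10A stood at -1.32, -1.01 and -1.499 against 1.24, 0.51 and -0.64 (1.65), and BAK1, which permeabilises mitochondria, at -1.52, -0.46 and -1.86 against 0.79, -0.15 and 0.07 (1.52). The survival gene MCL1 differed by -1.32 with groups that overlapped.

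Glycolysis had 10 of 28 genes in the table, 6 lower and 4 higher (median -1.21, or -0.81 without library 12 and -1.66 without library 18). Groups were apart in 6, and 10 passed without library 18 and 5 without libraries 12 and 18. PFKM, a phosphofructokinase, stood at 0.80, 1.03 and 2.02 with Tau-S199E against -0.77, -0.56 and 0.31 (-1.62, SE 0.38), and PGAM1, a phosphoglycerate mutase, at 0.77, 1.13 and 2.29 against -0.86, 0.16 and -0.28 (-1.73). LDHA, which makes lactate, differed by -1.47, whereas GPI, the isomerase that precedes PFKM, differed by 1.70 and the lactate exporter SLC16A3 by 1.61. Steps of this pathway thus differed in both directions. Sterol and fatty acid synthesis had 10 of 41 genes in the table, 8 lower and 2 higher (median -1.11, or -0.73 without library 12 and -1.49 without library 18). Groups were apart in 4, and 8 passed without library 18 and 6 without libraries 12 and 18. HMGCS1, which feeds the mevalonate pathway, stood at 0.88, 1.51 and 1.54 against -1.03, -0.53 and 0.30 (-1.73, SE 0.46), and CYP51A1 (-1.68) and MSMO1 (-1.33), later enzymes of the pathway, were lower too. NSDHL, an enzyme of the same late steps, stood opposite at -1.10, -0.91 and -1.34 against 0.74, 0.13 and -0.51 (1.24). Genes named SLC, which encode solute carriers, had 27 in the table, 14 higher and 13 lower (median 0.93, or 0.18 without library 16 and 1.26 without library 18). Groups were apart in 11, and 22 passed without library 18 and 11 without libraries 12 and 18. SLC37A4, the glucose-6-phosphate transporter, stood at -1.49, -0.79 and -1.64 against 1.62, 0.78 and -0.43 (1.97), and SLC35A2, which carries UDP-galactose into the Golgi, at 0.71, 1.49 and 1.44 against -1.42, -0.76 and 0.43 (-1.80).

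Membrane trafficking, the list of SEC24C and RAB2A, had 26 of 141 genes in the table, 16 lower and 10 higher (median -1.03, or -0.63 without library 12 and -1.54 without library 18). Groups were apart in 8 (30.8%), and 21 passed without library 18 and 14 without libraries 12 and 18. TRAPPC3, of a tethering complex at the Golgi, stood at 0.74, 1.54 and 1.73 with Tau-S199E against -0.997, 0.67 and -0.82 (-1.72, SE 0.49). RAB5A, a GTPase of early endosomes, stood opposite at -1.06, -1.07 and -1.32 against 1.44, 0.29 and -0.67 (1.5, SE 0.54), and CHMP5, of the complex that forms multivesicular bodies, differed by -1.44.

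The markers of adrenergic neuroblastoma, the state of the labelled line, had 0 of 32 genes in the table, and those of white blood cells and epithelial cells 0 of 11 and 0 of 7, so this table does not check the cell type. Markers of the mesenchymal, substrate-adherent state of neuroblastoma lines, in which cells spread and express matrix and adhesion genes, had 5 of 32 genes in the table, and all 5 were lower with Tau-K174Q-S199E (median -1.44, or -0.70 without library 12 and -1.85 without library 18). CD44, a hyaluronan receptor, stood at 0.88, 1.002 and 2.02 with Tau-S199E against -0.97, -1.39 and 0.23 (-2.01, SE 0.44), and the calcium-binding protein gene S100A6 at 0.69, 0.74 and 1.97 against -0.86, -0.98 and 0.60 (-1.55, SE 0.49). In these 2 genes the groups were apart. S100A10 (-1.44), CCN1 (-0.80) and SNAI2 (-0.74) overlapped. The mean of the 5 genes was 0.47, 0.56 and 1.83 in libraries 10, 11 and 12 and -0.69, -1.04 and 0.66 in libraries 16, 17 and 18, and library 18 lay nearer to Tau-S199E in each of them. All 5 passed without library 18, and 4 without libraries 12 and 18. The part of cell state in the other differences was not tested, and in bulk RNA fewer cells of a state and less RNA per cell cannot be told apart. Immediate early and inflammatory genes had 4 of 47 in the table, TNFAIP2 (-0.93), DUSP2 (-0.92), CCN1 and JUNB (-0.55), all lower with groups that overlapped (median -0.86, or -0.44 without library 17 and -1.36 without library 18). Of these, 3 passed without library 18 and 1 without libraries 12 and 18. Interferon and antigen presentation genes had 6 of 47 in the table, 2 higher and 4 lower (median -0.49, or -0.19 without library 17 and -0.72 without library 10). Of these, 5 passed without library 18 and 3 without libraries 12 and 18. HERC5, an enzyme that attaches ISG15, stood at -1.34, -1.74 and -0.74 against 0.75, -0.09 and 0.16 (1.55) and was the only one with groups apart. HLA-B (-1.30) and B2M (-1.32), the chains of a class I molecule, were lower, as was TAP2 (-0.75), whereas TAPBP was higher (1.35).

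By kind of gene, 46 pseudogenes had groups apart in 32 (69.6%), 19 lower and 13 higher, and library 18 lay nearer to libraries 16 and 17 in 27 of them (58.7%). For the 1585 protein-coding genes these shares were 42.8% and 25.1%. Reads of pseudogenes may belong to their parents, and the difference between the kinds was not tested. Genes higher with Tau-K174Q-S199E had a median length of 3336 bases in their longest GENCODE transcript and a GC content of 51.5%, and genes lower 2842 bases and 47.7%, over all 1676 genes. The Spearman correlation across genes of a library's values with GC content was -0.22, -0.02 and -0.20 in libraries 10, 11 and 12 and 0.17, 0.16 and -0.19 in libraries 16, 17 and 18, so that GC content moved with the difference and with library 18. Its part in the result was not tested.

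The levels of the other constructs put the difference in place. By the 4 clusters deposited by the authors, which are not independent of these values, Tau-K174Q-S199E averaged 0.32 ± 0.81 in cluster 1 and 0.51 ± 0.82 in cluster 2 against -1.11 ± 0.52 and -0.74 ± 0.36 with Tau-S199E (mean over genes, SD over 3 libraries). In clusters 3 and 4 it averaged -0.29 ± 0.86 and -0.39 ± 0.57 against 0.67 ± 0.49 and 1.15 ± 0.68. Tau-WT averaged 0.97 ± 0.08, 0.86 ± 0.15, -1.09 ± 0.18 and -0.93 ± 0.19 in clusters 1 to 4, and Tau-K174Q -0.18 ± 0.23, -0.62 ± 0.14, 0.71 ± 0.21 and 0.17 ± 0.20. The median differences in clusters 1 to 4 were 1.43, 1.23, -0.98 and -1.54, and 1.53, 1.58, -1.19 and -1.495 without libraries 12 and 18. The order of clusters 1, 2 and 4 by size thus changed with the libraries used, and cluster 3 had the smallest difference in both. Without library 18 alone cluster 3 stood at -1.49. Groups did not overlap in 62.9% of the 533 genes of cluster 4 and in 9.91% of the 353 of cluster 3. Library 18 lay nearer to libraries 16 and 17 in 44.8% and 7.08% of them. The mean of Tau-K174Q-S199E lay between those of Tau-S199E and Tau-WT in 1538 genes (91.8%), beyond Tau-WT in 134 and beyond Tau-S199E in 4. With library 18 left out it lay between them in 1148 (68.5%) and beyond Tau-WT in 523. Tau-WT minus Tau-S199E has the sign of the deposited fold change in all 1676 genes, so these positions describe a table in which the ends are fixed. Both comparisons share the Tau-S199E libraries.

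**Figure D5:**
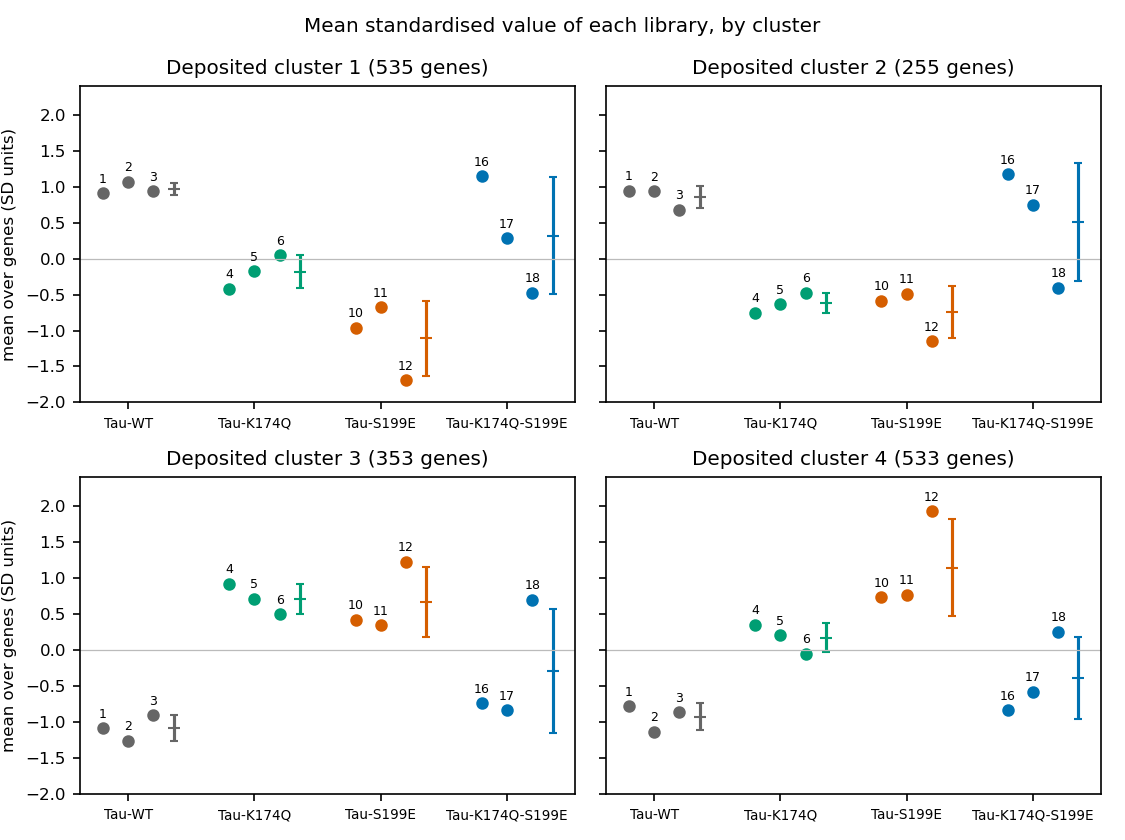
Mean over genes of the standardised value in SD units (y axis) in each library (numbered points) of the 4 constructs (x axis), in a panel for each deposited cluster, with bars for the mean and SD of the 3 libraries. Library 12 lies farthest from 0 among the Tau-S199E libraries and library 18 lies on the Tau-S199E side of libraries 16 and 17 in each cluster.

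Leaving out libraries 12 and 18 together turned the direction in 3 genes. With 1 library left out it turned in 5 genes (library 10 or 18) to 13 genes (library 16), and 32 genes did not keep 1 sign over these 6 fits. SYNE1, which encodes nesprin-1, a linker of nucleus and cytoskeleton, stood at -0.91, 0.30 and 1.43 with Tau-S199E against 0.50, -0.07 and -0.76, a difference of -0.39 that became 0.52 without them. HIPK3, a nuclear kinase, stood at 0.04, -0.27 and -1.06 against -0.66, -0.88 and 0.63 (0.12, then -0.66). IFITM1, an antiviral membrane protein, stood at -0.35, 0.95 and 0.51 against 1.16, -0.13 and -0.58 (-0.22, then 0.21). None of these genes passed in either version.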

How the data were processed

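Polyadenylated RNA of 12 libraries, 3 for each of 4 tau constructs, was measured by 3′ sequencing. Per the submitters' processing notes, the tools were STAR 2.5.3a, RSEM 1.2.31 and DESeq2 on GRCh38, and their roles are not listed. The transform and gene filter are stated nowhere in the labels or the file header. The library columns deposited by the authors are a score, each gene standardised over the 12 libraries as its values show, which removes fold size and depth. The log2 fold change and the adjusted p-value were deposited by the authors for a contrast that the header does not name, beside a cluster number.

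The standardised values went into limma 3.58.1 (R 4.3.3) as 4 construct means, each gene's ordinary residual variance (8 degrees of freedom), two-sided tests and Benjamini-Hochberg adjustment over 1676 genes at 0.05. A test on a gene's own variance does not depend on the scale that standardising set. The code was tested on simulated data. Alternatives were moderated variances, library weights (limma stopped their estimation before convergence), centring, group medians, the 6 libraries alone and libraries left out. Identifiers matched a current symbol table for 1675 of 1676 genes, and positions and transcripts came from GENCODE release 29. Genes named were those that passed with groups apart, filled to 10 in each direction by smallest p, the 5 with the smallest p in each list, MAPT, the enzymes that modify tau, and genes whose sign turned without libraries 12 and 18. Some genes that this rule selects are not reported here. Members and lists were chosen with earlier results of these data known.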

Additional observations from a re-analysis of the deposited data

Results flagged for a closer look

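The difference that K174Q made differed with S199E present and with S199E absent in 1625 of the 1676 genes (interaction of the 12 libraries, limma model with ordinary variances, adjusted p under 0.05), in a table that is itself a selection by a contrast the header does not name. This interaction contains Tau-WT minus Tau-S199E, which had the sign of the deposited fold change in all 1676 genes. The count and the p-values of the interaction are therefore not independent of how the table was made. What part the selection has in this count was not tested. In COL8A1 the difference was -2.002 with S199E and 0.85 without it, which gives -2.85 (SE 0.36, adjusted p = 0.0182). In INO80B-WBP1 the differences were -2.20 and -0.08, which gives -2.12 (SE 0.34, adjusted p = 0.0182). Both genes were chosen because their difference with S199E passed, and that difference is part of the interaction. Their interaction p-values are therefore no further support. The interaction is given with all libraries only.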

How the results depend on the processing

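The number of genes that passed depended on library 18, on the variance and on library weights. Against 2 genes (0 higher, 2 lower), moderated variances gave 1153 (576 and 577), library weights 1434 (670 and 764), and leaving out libraries 12 and 18 gave 730 (313 and 417). Centring gave 1 gene (0 and 1), and the 6 libraries of both constructs alone gave 0 by limma, where 349 genes had an unadjusted p under 0.05. A threshold of 0.01 gave 0. Leaving out 1 library gave 0 to 1315 genes, 0 to 629 higher and 0 to 686 lower, with the most without library 18. Moderated variances gave 1582 (749 and 833) without library 18 and 1314 (658 and 656) without libraries 12 and 18, both chosen after seeing the data. Genes with groups apart went from 738 to 1552 with 1 library left out, and numbered 1565 without libraries 12 and 18. Leaving out a library cannot make groups that are apart overlap. These counts therefore could not fall below the 728 of all libraries, and they are not comparable with it. Beyond that, the cause was not tested. Of the 29 list medians, 14 moved by over 1.5 times without library 12, 12 without library 16, 11 without library 17 and 7 without library 18. Centring raised each list median by 0.35. With 1 library left out, the median of the tRNA synthetase list ran from -0.0574 without library 11 to 0.266, SYNE1 from -0.975 to 0.194, HIPK3 from -0.343 to 0.413 and IFITM1 from -0.728 to 0.140. SYNE1 was 0.564 with library weights and 0.517 without libraries 12 and 18. HIPK3 was -0.775, -0.658 and, with group medians, -0.397. IFITM1 was 0.0319, 0.212 and, with centring, 0.125. No paired analysis was possible because the columns carry library numbers and not the replicate numbers of the labels. Depth is unknown, so counting error cannot be given.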

Other observations

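Chromosomes differed in the share of their genes that stood higher with Tau-K174Q-S199E than with Tau-S199E, which was 47.0% over the table. Among chromosomes with at least 50 genes in the table it was highest on chromosome 19 (71 of 106 genes, 67.0%) and lowest on chromosome 3 (30 of 81 genes, 37.0%). These shares were chosen after the values were seen, were not tested, and stand in a table whose directions follow its selection. The mean values of the genes higher with Tau-K174Q-S199E were -0.84, -0.62 and -1.52 in libraries 10, 11 and 12 and 1.16, 0.43 and -0.45 in libraries 16, 17 and 18, and those of the genes lower were 0.61, 0.60 and 1.65 and then -0.80, -0.68 and 0.43.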
